A study of Mus musculus with 40 samples.

Results

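Peaks of the nuclear receptor corepressors SMRT and NCoR and of the histone deacetylase HDAC3 were examined at 10 mouse genes for lipid droplets and triglyceride turnover: Plin2, Plin4, Plin5, Cidea, Cidec, Pnpla2, Pnpla3, G0s2, Abhd5 and Dgat2. The genes were named for their role in droplets and not by a threshold on these peaks, but with earlier results of the lists in view. A peak was taken when its centre lay inside a gene or within 50 kb of either end. The windows of the 10 genes formed 9 separate regions of 1060 kb in all, because those of the neighbours Plin4 and Plin5 overlapped. They held 96 of the 35138 NCoR peaks (0.273%), 36 of the 10654 SMRT peaks (0.338%) and 49 of the 14462 HDAC3 peaks (0.339%).

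Binding was mapped by chromatin immunoprecipitation and sequencing (ChIP-seq) in whole livers, with all their cell types together, of male C57BL/6 mice fed ad libitum on standard chow. The 3 groups behind the lists were labelled SMRT-Fed-WT, NCoR-Fed-WT and HDAC3-Fed-WT, and each list was called by the authors over 3 libraries from separate animals. All of these animals carried a floxed Bcl6 allele (Bcl6 fl/fl) that had not been deleted, so BCL6 was intact in all 3 groups. The series held 40 samples, and the 31 libraries from other genotypes, antibodies or inputs were not analysed here. The lists gave positions without height or score, and no source used here gives the sequencing depth, so the counts below have no error between animals. Presence in a list depends on depth and antibody as well as on binding, and these cannot be told apart. The tissue label could not be checked against marker genes, since the lists hold no expression values.

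Hepatocytes store triglyceride in droplets that are coated by perilipins and enlarged by CIDE proteins, filled by the acyltransferase DGAT2 and emptied by patatin-like lipases. Adipose triglyceride lipase, encoded by Pnpla2, cleaves the first fatty acid from triglyceride, is activated by ABHD5 and is inhibited by G0S2. Many of these genes are known targets of the fatty acid receptor PPARα, which binds a DR1 element with RXR. SMRT and NCoR hold HDAC3 in complexes that DNA-bound repressors and nuclear receptors recruit, and BCL6 is among those repressors.

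Sites that carried all 3 proteins, with peak centres no more than 200 bp apart, are called shared sites. They were found within 50 kb of all 10 genes, against 39.2% of the 21938 protein-coding genes, and an NCoR peak was found there for all 10 against 72.3%. At 7 of the 10 genes a shared site had the gene's own transcription start site (TSS) as its nearest, against 20.9% of coding gene symbols. Plin4, Cidea and Pnpla2 were the members without such a site. These counts describe a chosen set of genes. The background was every coding gene, whether or not it is used in liver, and the part that liver expression plays in these differences was not tested.

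Shared sites at the promoters of Plin2 and Plin5, and those 7 shared sites nearest to a member TSS that held a match to a searched motif, are shown to place the binding in sequence. Bases of the mm10 plus strand were read from RefSeq GRCm38.p6, 200 bp centred on the NCoR peak, and the windows at the promoters of Plin2 and Plin5 were shortened to leave out untranslated exons. Capitals mark motif matches, and the position of the peak centre is given from the nearest TSS of the gene. Gene positions are those of the GENCODE vM21 annotation on mm10.
Plin2, promoter, 33 bp upstream, chr4:86670061-86670193: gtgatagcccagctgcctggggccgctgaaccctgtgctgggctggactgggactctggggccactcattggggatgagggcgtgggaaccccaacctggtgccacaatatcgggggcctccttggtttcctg
Plin2, intergenic, 1877 bp upstream, chr4:86671838-86672037: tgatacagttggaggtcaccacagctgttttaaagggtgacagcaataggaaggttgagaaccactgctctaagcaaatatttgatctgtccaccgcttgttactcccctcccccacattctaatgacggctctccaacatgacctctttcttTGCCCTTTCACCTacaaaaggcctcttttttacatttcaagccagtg
Plin2, intergenic, 20291 bp upstream, chr4:86690252-86690451: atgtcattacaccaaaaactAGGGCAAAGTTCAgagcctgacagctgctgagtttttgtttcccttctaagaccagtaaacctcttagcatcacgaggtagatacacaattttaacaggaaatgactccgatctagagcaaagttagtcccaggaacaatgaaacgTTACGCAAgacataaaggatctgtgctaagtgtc
Plin5, promoter, 54 bp upstream, chr17:56117299-56117452: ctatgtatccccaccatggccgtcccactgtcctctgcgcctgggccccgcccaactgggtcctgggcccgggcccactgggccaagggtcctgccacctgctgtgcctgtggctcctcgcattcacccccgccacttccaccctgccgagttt
Cidec, coding exon, 6520 bp downstream, chr6:113428145-113428344: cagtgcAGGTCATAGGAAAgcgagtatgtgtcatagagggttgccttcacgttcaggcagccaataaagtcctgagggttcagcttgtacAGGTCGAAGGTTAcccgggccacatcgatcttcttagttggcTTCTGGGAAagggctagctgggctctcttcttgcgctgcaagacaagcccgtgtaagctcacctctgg
G0s2, intron of Lamb3, 1369 bp upstream, chr1:193274487-193274686: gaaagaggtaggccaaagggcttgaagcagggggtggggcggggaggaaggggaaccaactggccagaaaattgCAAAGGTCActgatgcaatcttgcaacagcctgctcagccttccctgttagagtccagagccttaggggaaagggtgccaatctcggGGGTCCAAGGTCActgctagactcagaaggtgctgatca
Abhd5, intron, 17251 bp downstream of the TSS, chr9:122368882-122369081: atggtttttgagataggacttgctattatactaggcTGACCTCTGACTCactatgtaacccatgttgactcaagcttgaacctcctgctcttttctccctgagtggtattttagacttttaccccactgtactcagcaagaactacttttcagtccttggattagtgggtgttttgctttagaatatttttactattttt
Abhd5, intergenic, 44277 bp downstream of the TSS, chr9:122395908-122396107: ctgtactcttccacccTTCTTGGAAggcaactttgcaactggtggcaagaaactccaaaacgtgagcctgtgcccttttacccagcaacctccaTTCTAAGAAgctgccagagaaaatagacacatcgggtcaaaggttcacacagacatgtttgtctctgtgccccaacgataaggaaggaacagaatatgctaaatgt
Dgat2, intergenic, 11948 bp upstream, chr7:99194568-99194767: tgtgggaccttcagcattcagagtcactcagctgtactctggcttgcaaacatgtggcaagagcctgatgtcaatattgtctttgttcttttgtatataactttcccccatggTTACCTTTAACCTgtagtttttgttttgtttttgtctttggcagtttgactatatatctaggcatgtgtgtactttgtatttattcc

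The 2 promoter stretches held no match to any searched motif and were rich in G and C, at 64.7% for Plin2 and 68.8% for Plin5. The other 7 windows ranged from 38.5% at Dgat2 and in the Abhd5 intron to 56% at G0s2. The site far upstream of Plin2 held a strict DR1 match, with an HNF4 half-site inside it, and a C/EBP match on the other side of the centre. The Cidec site held a BCL6/STAT match and a pair of DR1-like stretches, and the Abhd5 site beyond the gene held a pair of BCL6/STAT matches. A match describes the letters only and does not show which factor was bound.

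NCoR peaks at the member genes had a partner more often than NCoR peaks over the whole list, by a margin close to the counting error. Of the 96 peaks, 32 were shared sites (33.3%, exact Clopper-Pearson 95% interval 24 to 43.7), against 24.9% of all NCoR peaks. A further 17 had HDAC3 without SMRT (17.7%, 10.7 to 26.8), against 14.8%, and 4 had SMRT without HDAC3 (4.17%, 1.15 to 10.3), against 4.16%. The remaining 43 were NCoR-only (44.8%, 34.6 to 55.3), against 56.1%. For shared sites the interval held the share of the whole list, and for NCoR-only peaks it ended just below it. Counted by partner, 51% of the NCoR peaks had HDAC3 and 37.5% had SMRT, against 39.7% and 29% over the list. Neighbouring peaks are not independent, so the intervals cover counting error only.

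**Figure D1:**
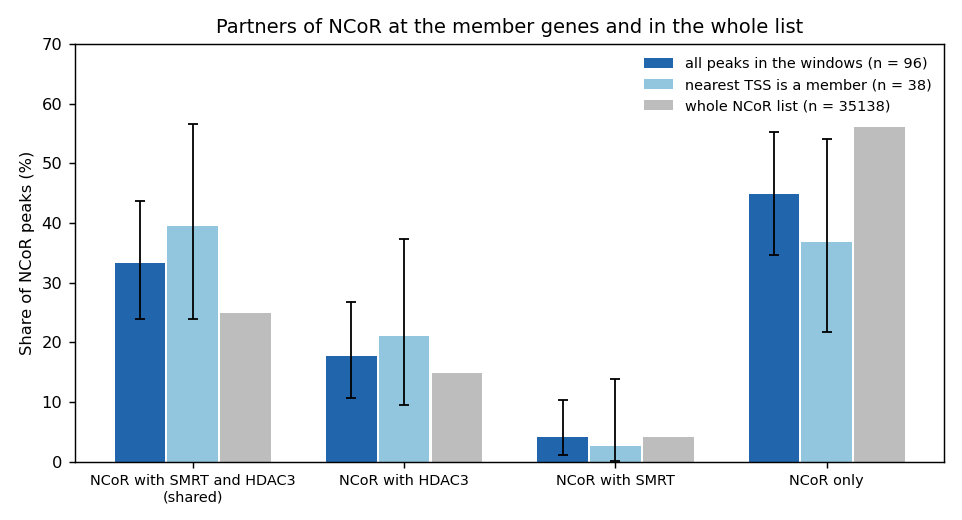
Share of NCoR peaks (%) in each partner class for all 96 peaks in the windows of the 10 genes, for the 38 whose nearest TSS belongs to one of them, and for the whole list of 35138. Bars start at 0 and error bars are exact 95% binomial intervals; shared sites made up 33.3%, 39.5% and 24.9%, and NCoR-only peaks 44.8%, 36.8% and 56.1%.

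As over the whole lists, nearly all SMRT and HDAC3 peaks sat with NCoR. All 36 SMRT peaks and all 49 HDAC3 peaks had an NCoR peak within 200 bp, against 95.7% and 96.5% over their lists. None was without either partner (0 to 9.74% for SMRT, list 3.35%, and 0 to 7.25% for HDAC3, list 2.95%). None had only the other of SMRT and HDAC3, against 0.901% of all SMRT and 0.588% of all HDAC3 peaks. The centres lay close together, at a median of 24 bp for SMRT (range 3 to 83 bp) and 25 bp for HDAC3 (1 to 79 bp), while the medians over all pairs in the lists were 24 and 23 bp. The distance was within 50 bp at 30 of the 36 SMRT pairs (83.3%, list 81.8%) and 44 of the 49 HDAC3 pairs (89.8%, list 82.5%). Of the HDAC3 peaks, 32 sat with both corepressors (65.3%, 50.4 to 78.3, list 60.4%) and 17 with NCoR alone (34.7%, 21.7 to 49.6, list 36%). Of the SMRT peaks, 32 sat at shared sites (88.9%, 73.9 to 96.9, list 81.9%). Each of these intervals held the share of the whole list.

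The windows were dense in peaks. They held 9.07 NCoR, 3.40 SMRT and 4.63 HDAC3 peaks per 100 kb, against 1.33, 0.402 and 0.546 per 100 kb of known bases in the genome. Over the windows of all coding genes, laid out in the same way, the mean density was 2.31 NCoR peaks and 0.539 shared sites per 100 kb, against 9.07 and 3.02 at the member genes. The median member window held 10 NCoR peaks and 2.5 shared sites, and the median coding gene window 2.0 and 0.0. Member windows were 101 to 130 kb long, and the median over coding genes was 117 kb.

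A gene within 50 kb is not the only candidate for a peak. For 38 of the 96 NCoR peaks the nearest TSS belonged to a member, and for the other 58 it belonged to one of 24 neighbouring genes. Among the 38 peaks nearest to a member, 15 were shared sites (39.5%, 24 to 56.6), 8 had HDAC3, 1 had SMRT and 14 were NCoR-only (36.8%, 21.8 to 54). Among the 58 nearest to a neighbour, 17 were shared sites (29.3%). Lamb3 was nearest to 5 of those 17, Mogat2 to 3 and Ano10 to 2, and 7 other genes to 1 each. A peak inside a member gene was nearer to another gene's TSS in 4 cases, 3 in Dgat2 and 1 in Pnpla3.

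**Figure D2:**
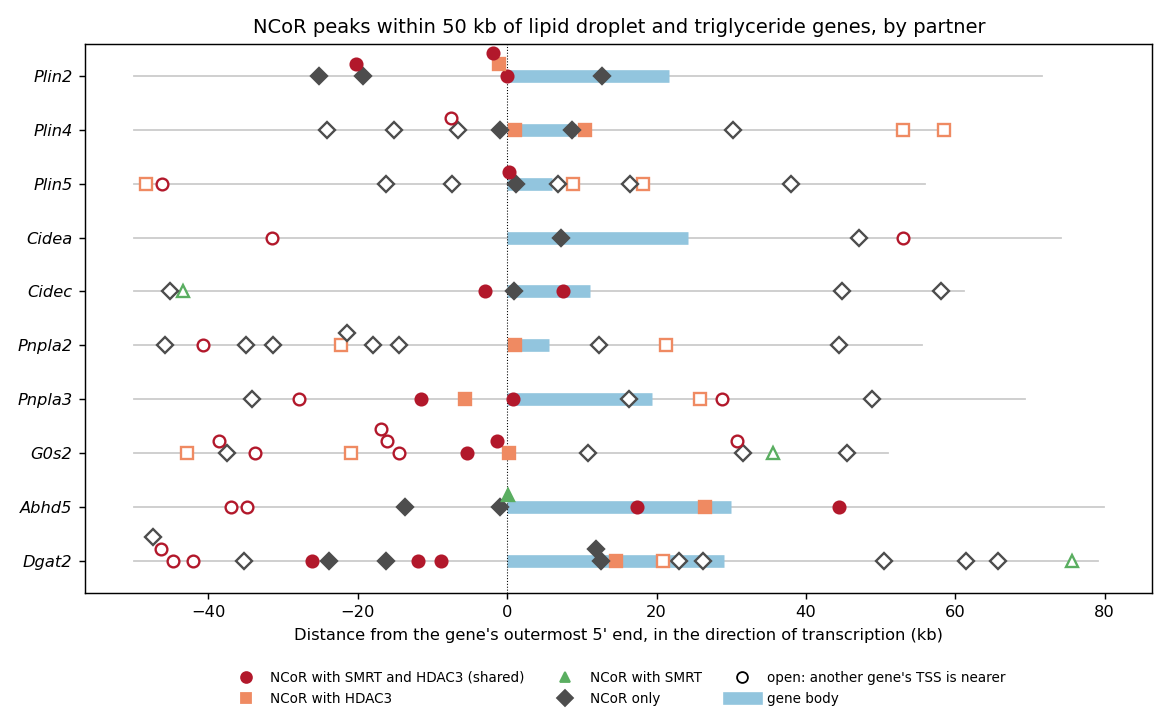
NCoR peaks along each of the 10 genes, drawn by distance (kb) from the gene's outermost 5′ end in the direction of transcription. Colour and shape give the partner class, filled symbols have the gene's own TSS as the nearest and open symbols another gene's, blue bars are gene bodies, and symbols that would overlap are raised. G0s2 and Dgat2 hold 16 and 20 peaks, and Cidea holds 4.

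The perilipins differed in where the shared sites lay. Plin2 (ENSMUSG00000028494.12, chr4:86648386-86670060, minus strand) encodes the main coat protein of hepatocyte droplets. All 7 NCoR peaks in its window had Plin2 as the nearest gene, and 18.3% of coding genes had at least as many peaks. A shared site lay 33 bp upstream of the TSS, an NCoR peak with HDAC3 1054 bp upstream and another shared site 1877 bp upstream, so that these centres spanned 1844 bp. The last shared site, 20291 bp upstream, lay between NCoR-only peaks at 19344 and 25136 bp, and another NCoR-only peak lay in an intron. Plin2 thus held 3 shared sites of its own, as many as Dgat2 and more than any other member.

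Plin4 and Plin5 are neighbours on chromosome 17 whose ends are 1798 bp apart. Their windows held 11 NCoR peaks each, 9 of them in common, and 5.19% of coding genes had at least as many. Plin5 (ENSMUSG00000011305.11, chr17:56111601-56117596, minus strand), which ties droplets to mitochondria in oxidative tissues, had a shared site 54 bp upstream of an annotated TSS and an NCoR-only peak 897 bp downstream in a coding exon. The shared site lay inside the gene, in an intron downstream of the outermost of its 2 annotated TSS. It counts as a promoter site by the inner TSS. At this promoter site the SMRT centre was 26 bp and the HDAC3 centre 3 bp from that of NCoR. Plin4 (ENSMUSG00000002831.13, chr17:56100591-56109803, minus strand), a coat protein of small droplets, was the nearest gene of 4 peaks and of no shared site. Of these, the peaks 1013 bp and 10375 bp downstream of its TSS had HDAC3, and those 952 bp upstream and 8673 bp downstream were NCoR-only. The only SMRT peak in the Plin4 window was therefore the one at the Plin5 promoter.

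CIDE proteins promote droplet fusion and growth. Cidec (ENSMUSG00000030278.11, chr6:113424634-113435760, minus strand) was the nearest gene of 3 of the 7 NCoR peaks in its window. Shared sites lay 3025 bp upstream and in a coding exon 6520 bp downstream of the nearest annotated TSS, and the peak closest to a TSS, 94 bp upstream, was NCoR-only. The coding exon site was the only one of the 32 shared sites in coding sequence. Cidea (ENSMUSG00000024526.9, chromosome 18, plus strand), better known from brown fat and from fatty liver, had the fewest peaks of the 10 genes. Its 4 NCoR peaks were exceeded or equalled by 39.1% of coding genes, and the only one nearest to it was an NCoR-only peak in an intron, 7272 bp downstream of the TSS. The shared sites of its window lay in introns of Impa2 and Tubb6. No HDAC3 peak without SMRT was found in the window of Cidea or Cidec.

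The lipases and their regulators had 45 NCoR peaks in their windows, of which 17 were shared, 9 had HDAC3, 2 had SMRT and 17 were NCoR-only. Pnpla2 (ENSMUSG00000025509.15, chr7:141455198-141460743, plus strand) had 12 NCoR peaks in its window, a number reached by 3.77% of coding genes, but was the nearest gene of only 1 of them. That peak lay 1024 bp downstream of the TSS in an intron, with an HDAC3 centre 42 bp away and no SMRT, and it held FOX and ETS/ELK matches. The only shared site of the window lay 376 bp upstream of a Gatd1 TSS, and 8 of the 12 peaks were NCoR-only.

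Pnpla3 (ENSMUSG00000041653.5, chr15:84167837-84187236, plus strand) encodes a droplet lipase whose variants are tied to fatty liver in people. It was the nearest gene of 3 of 9 NCoR peaks. Shared sites lay 11557 bp upstream and 758 bp downstream, the latter in an intron, and a peak with HDAC3 lay 5587 bp upstream, so that none of its own peaks was NCoR-only. At the intron site the SMRT centre was 33 bp and the HDAC3 centre 8 bp from that of NCoR. Further shared sites of the window had Pnpla5 and Samm50 as the nearest genes. As many as 4 shared sites or more were found at 5.07% of coding genes.

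G0s2 (ENSMUSG00000009633.3, chr1:193272161-193273217, minus strand), the short gene of the lipase inhibitor, had the most shared sites. Its window held 16 NCoR peaks, 9 SMRT peaks and 11 HDAC3 peaks, and 8 of the NCoR peaks were shared sites, a number reached by 0.278% of coding genes. A peak with HDAC3 lay 193 bp downstream of the TSS in an untranslated exon of the gene. Shared sites 1369 bp and 5357 bp upstream were nearest to G0s2, both within an intron of Lamb3, which lies on that side. Of the other 6 shared sites, 5 were nearest to Lamb3, 3 of them within 2378 bp of each other, and 1 to Hsd11b1, the gene of the enzyme that regenerates active glucocorticoid. Most shared sites around G0s2 were thus nearer to another gene.

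Abhd5 (ENSMUSG00000032540.16, chr9:122351608-122381524, plus strand), the gene of the lipase co-activator, was the nearest gene of 6 of 8 NCoR peaks. The peak at its TSS, 8 bp downstream, had SMRT and no HDAC3, with the SMRT centre 63 bp away, and was the only peak of that class nearest to a member. Shared sites lay 17251 bp downstream in an intron and 44277 bp downstream, beyond the end of the gene. A peak with HDAC3 lay in an intron at 26408 bp, and NCoR-only peaks lay 1014 and 13698 bp upstream. The other 2 shared sites of the window were nearest to Ano10.

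Dgat2 (ENSMUSG00000030747.5, chr7:99153658-99182719, minus strand) encodes the enzyme of the last step of triglyceride synthesis. Its window held 20 NCoR peaks, the most of the 10 genes, and 0.374% of coding genes had at least as many. Dgat2 was the nearest gene of 8 of them. Its own shared sites lay 8887, 11948 and 26117 bp upstream, outside genes, and the closest of these was also the NCoR peak closest to the TSS, so that no peak lay at the promoter. The gene body held 6 NCoR peaks and no shared site. NCoR-only peaks lay 11947 and 12532 bp downstream and a peak with HDAC3 at 14523 bp, and the other 3, 1 with HDAC3 and 2 NCoR-only, lay in introns further downstream and were nearer to the TSS of Uvrag. The other 3 shared sites of the window were in introns of Mogat2, the gene of another acyltransferase of triglyceride synthesis, and the 7 peaks nearest to Uvrag included no shared site.

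The peak closest to the TSS differed in class between the genes. It was a shared site at 4 genes (Plin2, Plin5, Pnpla3 and Dgat2), a peak with HDAC3 at Pnpla2 and G0s2, a peak with SMRT at Abhd5 and NCoR-only at Plin4, Cidea and Cidec. For 8 of the 10 genes it lay within 1100 bp of the TSS, against 22.3% of coding genes, and Cidea and Dgat2 were the exceptions. Within 1000 bp there were 7 genes, against 21.7%, since the Pnpla2 peak lay at 1024 bp. Of the 15 shared sites nearest to a member, 2 were in a promoter (from 1000 bp upstream to 100 bp downstream of a TSS), 1 in a coding exon, 4 in introns and 8 outside genes. Of all 96 NCoR peaks, 14 were in promoters (14.6%, list 10.4%), 5 in coding exons, 3 in untranslated exons, 51 in introns and 23 outside genes. Over the list, 1.71% were in coding exons, 2.29% in untranslated exons, 48.4% in introns and 37.2% outside genes. Promoters took 4 of the 32 shared sites (12.5%, list 5.8%) and 8 of the 43 NCoR-only peaks (18.6%, list 12.7%).

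Motif matches were counted in the 200 bp around each NCoR peak, on both strands. The strings were TTCCNAGAA, TTCCNGGAA, TTCTNAGAA or TTCTNGGAA for BCL6/STAT, TCAAGGTCA or TGAAGGTCA for ERR, CAAAGGCCA, CAAAGGTCA, CAAAGTCCA or CAAAGTTCA for the HNF4 half-site, TGTTTAC for FOX, CCGGAAGT for ETS/ELK, TATCGATC, TATCGATT, TATTGATC or TATTGATT for HNF6/CUX2 and TTACGCAA, TTATGCAA, TTGCGCAA or TTGTGCAA for C/EBP. Strict DR1 and CTCF strings were searched too. A looser DR1 was a pair of AGGTCA repeats with 1 base between them and up to 2 of the 12 letters changed. DR1 forms can overlap each other and the HNF4 half-site, and the same stretch then counts for each.

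At least 1 match was found in 33 of the 96 peaks. The looser DR1 was the most frequent, in 14 peaks (14.6%), against 12.9% of all NCoR peaks and 6 of 192 windows placed 2 kb to either side (3.12%). Those windows were not cleared of other NCoR peaks, and some overlapped one, as where neighbouring centres lay 1991 or 2082 bp apart. The looser DR1 was found in 8 of the 32 shared sites and in 2 of the 43 NCoR-only peaks. Over the list it was in 14.7% of all shared and 12% of all NCoR-only peaks. In the shared sites at G0s2, Plin2 and the Abhd5 intron the matches lay 58 to 74 bp from the centre, so a 100 bp window left them out. Both counts are small, and the difference between the classes was not tested. The strict DR1 was found in 2 peaks (2.08%, list 1.55%), 1 upstream of Plin2 and 1 in Uvrag near Dgat2. The HNF4 half-site was found in 8 peaks (8.33%, list 7.85%) and the C/EBP string in 7 (7.29%, list 5.51%).

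BCL6/STAT matches were found in 4 peaks (4.17%, list 3.84%). They were in 3 of the 32 shared sites and 1 of the 43 NCoR-only peaks, against 4.42% and 3.5% of those classes over the list. The shared sites were the Cidec coding exon site, the distal Abhd5 site and a site nearest to Ano10. The peak that was not shared lay 16261 bp upstream of Dgat2. FOX matches were found in 4 peaks (4.17%, list 7.74%), HNF6/CUX2 in 2 (2.08%, list 5.67%) and ETS/ELK in 2 (2.08%, list 0.754%). No peak held the ERR or the CTCF string, which 2.19% and 0.507% of the list held. With so few matches each of these shares rests on a handful of peaks.

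**Figure D3:**
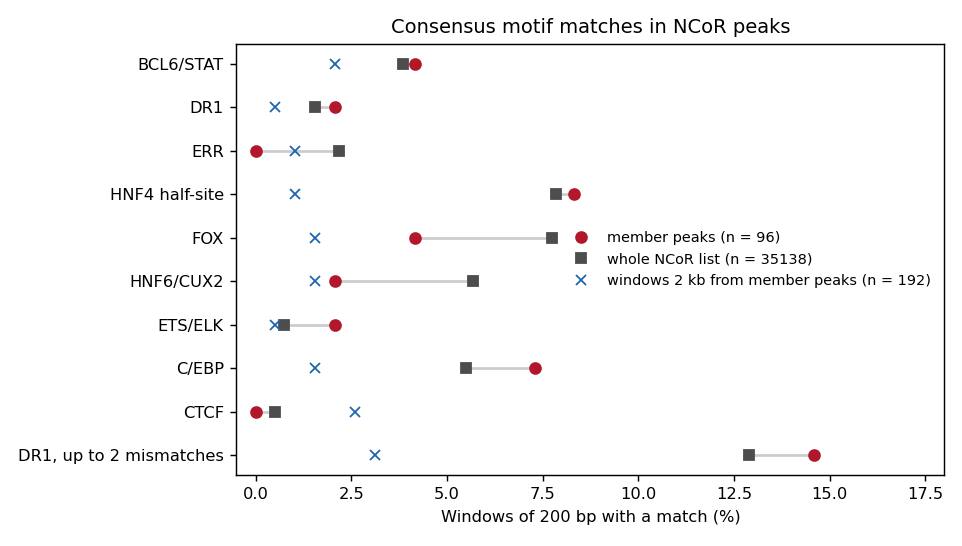
Share of 200 bp windows (%) with a match to each string for the 96 NCoR peaks at the 10 genes (circles), the whole NCoR list (squares) and 192 windows 2 kb to either side of the member peaks (crosses). Some of the windows to the side overlap another NCoR peak. The looser DR1 was found in 14.6%, 12.9% and 3.12%, and the ERR and CTCF strings in no member peak.

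A list of 30 further genes of droplets and triglyceride was examined in the same way. All 30 had an NCoR peak within 50 kb and 24 had a shared site, against 72.3% and 39.2% of coding genes. Their windows held 219 NCoR peaks, of which 66 (30.1%, list 24.9%) were shared sites, and the median gene had 7.0 NCoR peaks and 2.0 shared sites. Shared sites were found at 5 of 6 genes of other coat and droplet proteins, 6 of 7 of lipolysis, 8 of 10 of glycerolipid synthesis and 5 of 7 of droplet formation and lipoprotein export. Plin3, Aadac, Lpin1, Lpin2, Fitm2 and Bscl2 were the genes without one, though Lpin1, the gene of a phosphatidate phosphatase, had 10 NCoR peaks.

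The genes with the most shared sites on this list were Ces1d and Mgll with 7 each and Ces1g with 5. Mgll encodes monoacylglycerol lipase, which completes triglyceride breakdown, and Ces1d and Ces1g encode carboxylesterases of the liver that hydrolyse stored lipid. Agpat2 and Gpat4, acyltransferases of early glycerolipid synthesis, had 4 each, as did Hsd17b11, Lipa and Plin1. Mgll has a long window of 204 kb, and the Ces1 genes are a family of similar sequence in which uniquely mapped reads can miss stretches. By window count, G0s2 with 8 shared sites stood above all of these genes, and Dgat2 with 6 above all but Ces1d and Mgll. Among G0s2, Dgat2, Ces1d and Mgll, shared sites with the gene's own TSS as the nearest gave another order. There were 7 at Mgll, 3 at Dgat2, 2 at G0s2 and 1 at Ces1d. Plin2, Lipe, Gpam, Gpat4 and Agpat2 also had 3 such sites each, and several other genes of both lists had 2.

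**Figure D4:**
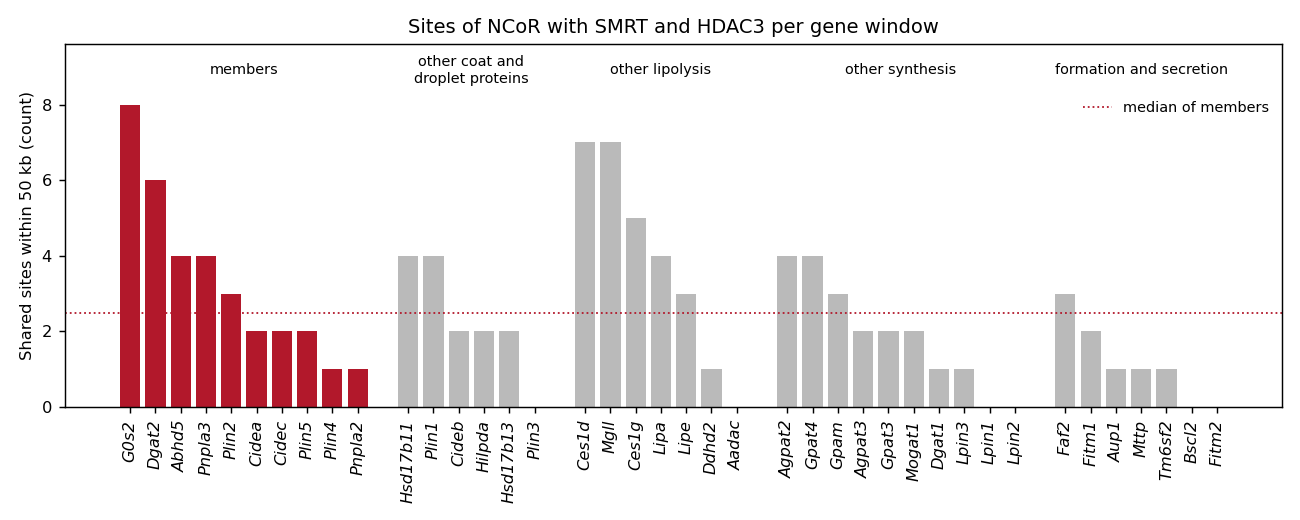
Number of shared sites within 50 kb of each gene, for the 10 members (red) and 30 further genes of droplets and triglyceride (grey), sorted within each list. The dotted line is the median of the members, 2.5; G0s2 has 8, Ces1d and Mgll have 7, and 6 of the grey genes have none.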

How the data were processed

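ChIP-seq was done in the study on livers crosslinked with disuccinimidyl glutarate and formaldehyde. Antibodies were custom polyclonal ones for SMRT and NCoR and a commercial one for HDAC3. The 3 peak lists used here came from 9 ChIP libraries among the 40 samples of the series, besides input. The labels hold an input common to these 3 groups, Input-Fed-WT-SMRT-NCoR-HDAC3, and whether each list was called against it is not stated. Per the study's methods, the authors aligned 75 bp single-end reads to mm10 with Bowtie, kept unique reads and 1 read per position, called peaks in HOMER on the 3 pooled replicates against input, and kept those that DESeq2 passed. The deposited lists held start and end positions and no score, count or replicate value. Whether positions start from 0 or 1 was not stated, which can move a centre by 1 bp. Intervals were 212 bp (SMRT, HDAC3) or 228 bp (NCoR).

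Overlap followed the study's 200 bp limit between centres. Genes and TSS came from the GENCODE vM21 basic annotation (protein-coding), and sequence from GRCm38.p6. The members and gene lists were chosen with earlier results of these data known. All members were named, and of the 30 further genes the 5 with the highest numbers of shared sites (ties in order of symbol) and those without a peak, of which there were none; genes named beyond this were chosen after their values were seen. Counts were made in Python 3.11.15 with SciPy 1.17.1 and exact 95% intervals. Code was tested on simulated data. No test of a difference was run, since the lists hold no replicates. Alternatives changed the overlap, the window, the TSS set and the motif window.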

Additional observations from a re-analysis of the deposited data

How the results depend on the processing

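Of 36 values recomputed under alternatives, 28 stayed within 1.5 times of the count reported, or for a share within its interval. With a window of 10 kb in place of 50 kb there were 11 shared sites and 15 NCoR-only peaks, since the window is smaller. The shared share was 29.7%, and 8 of the 10 genes had a shared site in reach, as had 17 of the 30 further genes. The 39.2% of coding genes given above is for 50 kb, and the share at 10 kb is not given here. With motif windows of 100 bp, fewer bases were searched and matches fell to 1 peak for strict DR1, 5 for the HNF4 half-site, 1 for HNF6/CUX2, 1 for ETS/ELK, 3 for C/EBP and 8 for the looser DR1. Overlap limits of 100 and 400 bp gave 32 shared sites and 43 NCoR-only peaks each. The number of NCoR peaks nearest to a member moved from 38 to 27 when genes of any biotype were included and to 46 when the outermost TSS alone was used.

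No paired analysis was possible because the lists pool the replicates and carry no value per replicate. For the same reason leaving out a replicate was not run, and a stricter peak threshold was not run because the lists hold no score. Depth is unknown, and absence from a list is not absence of binding.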
